A study of Mus musculus with 6 samples.

Results

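The genes examined encode histone-modifying enzymes, taken by symbol from 7 families: Kdm (lysine demethylases), Kmt2 (lysine methyltransferases of the trithorax type), Setd (SET domain methyltransferases), Prmt (arginine methyltransferases), Kat (lysine acetyltransferases), Hdac (histone deacetylases) and Sirt (sirtuins). A gene belonged where its symbol was one of these stems followed by 1 to 3 letters or digits. Kdm5c, Kdm5d and Kdm6a, which lie on the sex chromosomes, were left out. Hdac6 and Hdac8, which lie on the X chromosome, were kept. Of 19938 genes measured, 65 were members: 15 Kdm, 5 Kmt2, 10 Setd, 8 Prmt, 9 Kat, 11 Hdac and 7 Sirt genes. One match of the rule, Katna1, encodes the catalytic subunit of katanin, which cuts microtubules and does not modify histones. It is counted with the Kat genes by its symbol and described apart.

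Expression was measured on 6 mouse gene arrays hybridised with total RNA of bulk cultures of iPSCs, pluripotent stem cells induced from fibroblasts by reprogramming, 3 arrays per culture state. Naive cells were grown in medium with 15% fetal bovine serum and 1000 U/ml leukaemia inhibitory factor, the cytokine that sustains mouse embryonic stem cells. Primed cells were grown on feeder cells or matrigel in fibroblast-conditioned medium with 8 ng/ml basic FGF, conditions that resemble those of post-implantation epiblast cells. By their titles the naive cells came from embryonic and the primed cells from adult dermal fibroblasts, while another label gives an embryonic origin for both, so culture state and origin of the line cannot be told apart. No strain, sex, genotype or number of lines is stated. Cultures of 1 line may therefore stand behind the 3 arrays of a group, and the p-values describe no more than the spread among these 6 arrays.

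Histones are modified by enzymes that write a mark and others that remove it. Acetyltransferases add acetyl groups to lysines of histone tails, a mark of active genes, and deacetylases and sirtuins take them off. Methyltransferases and demethylases act on single lysines, and the effect of the mark depends on which lysine carries it: methylation of lysine 4 of histone H3 marks promoters and enhancers, that of lysine 36 marks transcribed gene bodies, and that of lysines 9 and 27 accompanies silencing. Mouse pluripotent cells in the naive and primed states are known to differ in how such marks are spread over the genome.

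All values are log2 units made with robust multi-array averaging (RMA), and every difference is primed minus naive, so a positive difference is a higher level in primed cells. Array values are listed in the order of replicates 1, 2 and 3. Because a probe set's brightness depends on its probes, levels are compared between arrays and not between genes. A gene is called in background in a state if all 3 values fall below a cutoff set per array, 6.96 to 7.03, which is the 95th percentile of the 1190 genes for olfactory or vomeronasal receptors. The array median over all genes lay at 8.28 to 8.29 in naive cells, below the 8.35 to 8.38 of the primed arrays, and all genes had a median difference of -0.0015. Of the 15 markers of pluripotent cells examined, 15 were above background on naive and 14 on primed arrays, the exception being Dppa5a. Their summed level was 174.25 to 174.65 over the naive arrays and 164.66 to 165.01 over the primed ones, and 11 of the 15 were higher in naive cells. Of 20 markers of fibroblasts and feeder cells, 15 were above background in each state, and the summed level was 165.30 to 166.16 in naive and 163.57 to 164.24 in primed cells. By the test 3 rose and 9 fell in primed cells. The largest rise was that of Dcn, the gene of the matrix protein decorin, from a mean of 7.25 to 10.15. The largest falls were those of Acta2, from 11.82 to 10.59, and Tagln, from 11.84 to 10.75. Fap, Lum, Postn, Prrx1 and S100a4 were in background in both. The 9 endoderm markers, 1 of them lower in primed cells, summed to 65.71 to 66.40 and 65.21 to 65.91, with Afp, Sox17 and Ttr in background. Of 8 neural markers measured, 6 rose in primed cells, and the list summed to 66.61 to 66.89 in naive and 71.87 to 72.71 in primed cells. The part of these markers in the results on the enzymes was not tested. In bulk cultures a change in the share of cells of a type and a change in RNA per cell cannot be told apart.

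The enzyme genes differed between the states about as often as other expressed genes did. The difference in direction between families was not tested. In the limma test adjusted over all genes, 21 of the 65 members were higher in primed cells, 15 were higher in naive cells and 29 did not pass an adjusted p of 0.05. This is 55.4% of the members, against 44.5% of all genes (21.8% up in primed and 22.7% up in naive cells) and 56.7% of the 14573 genes above background in at least 1 state (27.8% and 28.8%). Most differences were small: the median size was 0.34 among the members called and 0.36 among all genes called. A difference of at least 0.5, about 1.4-fold, was called for 11 members (16.9%), against 13.9% of all genes and 18.5% of the genes above background. The 3 naive and 3 primed values did not overlap for 40 members (61.5%), against 52.9% of all genes and 65.4% of those above background. The members' shares called, called at 0.5 or more and without overlap each lay between those of all genes and expressed genes. Their median size among called genes was below both, at 0.34 against 0.36 and 0.37. By direction, 32.3% of members were higher in primed cells, above both shares, and 23.1% in naive cells, between them. When each array was centred on its median over all genes, the members divided into 16 that rose and 19 that fell in primed cells, and all genes into 3439 and 6325, so the balance between directions depended on scaling. No member called in one direction was called in the other under any alternative tried.

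The called Setd genes went 1 way: 7 of 10 were higher in naive cells and 0 in primed cells, with a family median difference of -0.25. Setd5 (0.09) and Setd6 (0.06) had positive differences that did not pass, and with quantile normalization Setd5 was called higher in primed cells. In each of the other families more members rose than fell in primed cells, except among the Prmt genes, of which 2 rose and 3 fell. With each array centred, Kmt2 genes divided 1 to 1 and sirtuin genes 2 to 2, and with quantile normalization Kmt2 genes divided 1 to 1. Kdm genes divided 6 to 1, Kmt2 genes 2 to 0, Kat genes 3 to 1, Hdac genes 5 to 2 and sirtuin genes 3 to 1. The share called was 46.7% of 15 Kdm, 40% of 5 Kmt2, 44.4% of 9 Kat and 57.1% of 7 sirtuin genes. It was 63.6% of 11 Hdac, 62.5% of 8 Prmt and 70% of 10 Setd genes. These stand beside 44.5% of all genes and 56.7% of expressed genes. The members with the largest differences were Prmt8 (1.57), Kdm7a (1.02) and Setd2 (-0.92).

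**Figure D1:**
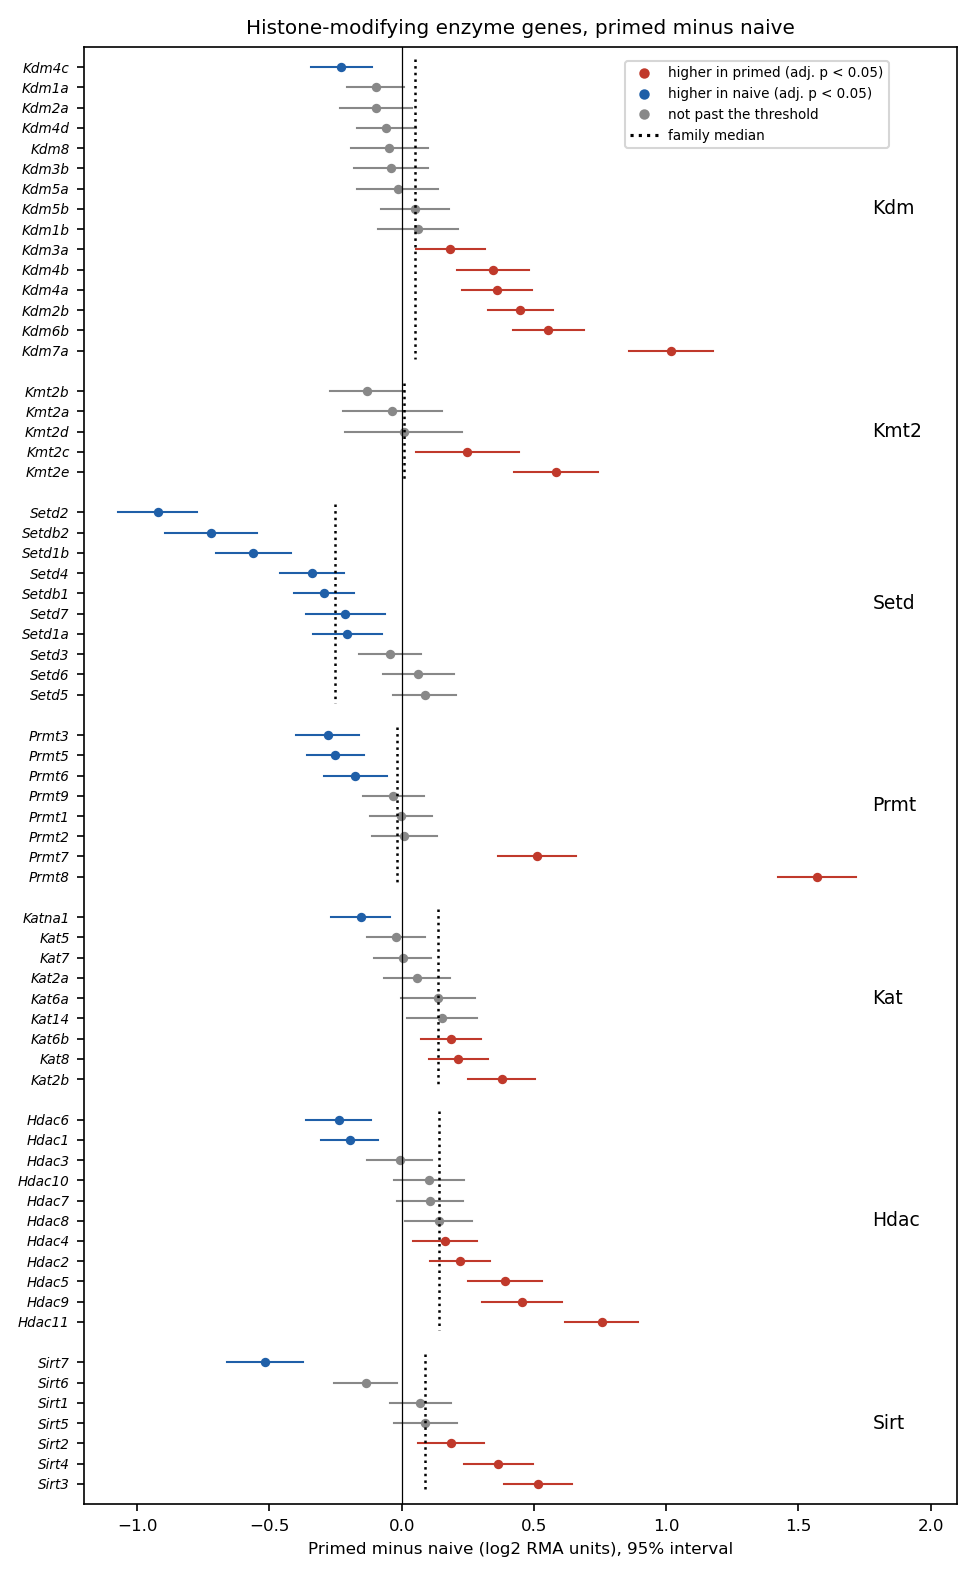
Difference of each of the 65 members, primed minus naive in log2 RMA units, with its 95% interval from the limma fit, grouped by family; red marks genes higher in primed and blue genes higher in naive cells with an adjusted p below 0.05, grey marks genes that did not pass, and dotted lines are family medians. The Setd points lie mostly left of 0, and Prmt8 at 1.57 and Kdm7a at 1.02 lie farthest right.

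The promoters of these 3 genes are shown because they belong to the members that changed most in either direction. Each window runs from 250 bases before to 50 bases after a RefSeq transcription start in build GRCm38.p6, written 5′ to 3′ on the gene's strand. Prmt8 lies at chr6:127769106-127769405 on the minus strand, Kdm7a at chr6:39206724-39207023 on the minus strand and Setd2 at chr9:110532347-110532646 on the plus strand. Of the 2 windows listed for Prmt8, the first is given. Capitals mark matches, on either strand, of any of 7 short motifs: the GC box GGGCGG, the CCAAT box CCAAT, the E-box CACGTG, the CRE TGACGTCA, the ETS site CCGGAAG, the octamer ATGCAAAT and the TATA box TATAAA. Matches may overlap each other.
Prmt8: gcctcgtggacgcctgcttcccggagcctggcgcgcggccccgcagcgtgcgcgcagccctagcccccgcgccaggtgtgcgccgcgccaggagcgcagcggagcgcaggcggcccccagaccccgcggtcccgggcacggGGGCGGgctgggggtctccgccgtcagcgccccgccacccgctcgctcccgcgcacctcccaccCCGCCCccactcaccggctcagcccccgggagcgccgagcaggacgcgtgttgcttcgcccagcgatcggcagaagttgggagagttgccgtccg
Kdm7a: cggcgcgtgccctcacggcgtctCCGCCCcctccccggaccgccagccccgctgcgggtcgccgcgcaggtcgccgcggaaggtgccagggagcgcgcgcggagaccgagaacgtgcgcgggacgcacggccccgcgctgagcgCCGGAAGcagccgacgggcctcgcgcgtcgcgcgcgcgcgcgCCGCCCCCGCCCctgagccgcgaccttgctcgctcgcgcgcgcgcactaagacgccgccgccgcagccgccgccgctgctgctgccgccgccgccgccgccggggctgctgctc
Setd2: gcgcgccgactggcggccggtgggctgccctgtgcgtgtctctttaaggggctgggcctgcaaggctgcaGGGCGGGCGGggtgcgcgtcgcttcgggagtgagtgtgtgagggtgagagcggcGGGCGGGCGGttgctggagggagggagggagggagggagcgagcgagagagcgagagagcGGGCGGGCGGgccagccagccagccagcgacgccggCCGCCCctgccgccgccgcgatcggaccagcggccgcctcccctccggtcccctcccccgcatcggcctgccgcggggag

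The 3 windows are rich in G and C (79%, 82.7% and 77.3%) and in CpG pairs, with 44 in Prmt8, 65 in Kdm7a and 38 in Setd2. GC boxes were found 2 times in the Prmt8 window, 3 times in that of Kdm7a and 7 times in that of Setd2, and the Kdm7a window holds 1 ETS match. The other 5 motifs were not in these windows. Of the 65 members, 52 had an entry in the RefSeq promoter table, with 70 windows. These windows held a median of 21.5 CpG pairs against 7 in all 32851 windows of the table, and 61.4% held a GC box against 35.7%. The ETS motif was in 20% of the members' windows against 8.86% of all, the CCAAT box in 41.4% against 37.4%, the E-box in 8.57% against 7.15% and the TATA box in 4.29% against 13.6%. The CRE (1.43% against 1.79%) and the octamer (1.43% against 1.74%) were rare in both. The full table was not matched to the members for expression, so these shares only describe the windows.

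Among the Setd genes, Setd2, the enzyme that trimethylates lysine 36 of histone H3 along transcribed genes, differed most. Its naive arrays read 10.87, 11.13 and 11.01 and its primed arrays 10.12, 10.02 and 10.09. Every primed array lay below every naive array, with a difference of -0.92 (SE 0.07, adjusted p = 6.87e-07), or 1.90-fold lower in primed cells (95% interval 1.71 to 2.103). A further Setd2 probe set fell by 1.08. Setdb2, a member of the branch that methylates lysine 9, read 7.49, 7.66 and 7.49 in naive cells and 6.73, 7.003 and 6.74 in primed cells. The groups did not overlap and the difference was -0.72 (SE 0.08, adjusted p = 1.75e-05), 1.65-fold. All 3 primed values lay in background, so the size of this fall is compressed. Setd1b, a catalytic subunit of the SET1 complex that methylates lysine 4, read 10.09, 10.23 and 10.17 in naive cells and 9.69, 9.63 and 9.49 in primed cells. The groups were again apart, by -0.56 (SE 0.06, adjusted p = 2.4e-05) or 1.48-fold, and its further probe set differed by -0.55.

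The partner of Setd1b in the other SET1 complex, Setd1a, was also lower in primed cells but by less (-0.21, adjusted p = 0.0137). Setdb1, which trimethylates lysine 9 and silences retroelements in embryonic stem cells, differed by -0.29 (adjusted p = 0.000591), Setd4 by -0.34 (adjusted p = 0.000339) and Setd7, which adds a single methyl group to lysine 4 and to other proteins, by -0.21 (adjusted p = 0.0243). The 7 called Setd genes had all 3 primed values below all 3 naive values. Groups without overlap, in either direction, made up 70% of the family, near the 65.4% of expressed genes and above the 52.9% of all genes. Setd3, an enzyme that methylates actin, Setd6 and Setd5 did not pass, with differences of -0.05, 0.06 and 0.09. Their 95% intervals reached from -0.16 to 0.07, from -0.07 to 0.20 and from -0.03 to 0.21, so falls of the size seen in Setd2 lay outside them. The call of Setd1a ended without naive replicate 3 or either of primed replicates 2 and 3, and that of Setd7 without naive replicate 2 or either of the same primed arrays and with quantile normalization.

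**Figure D2:**
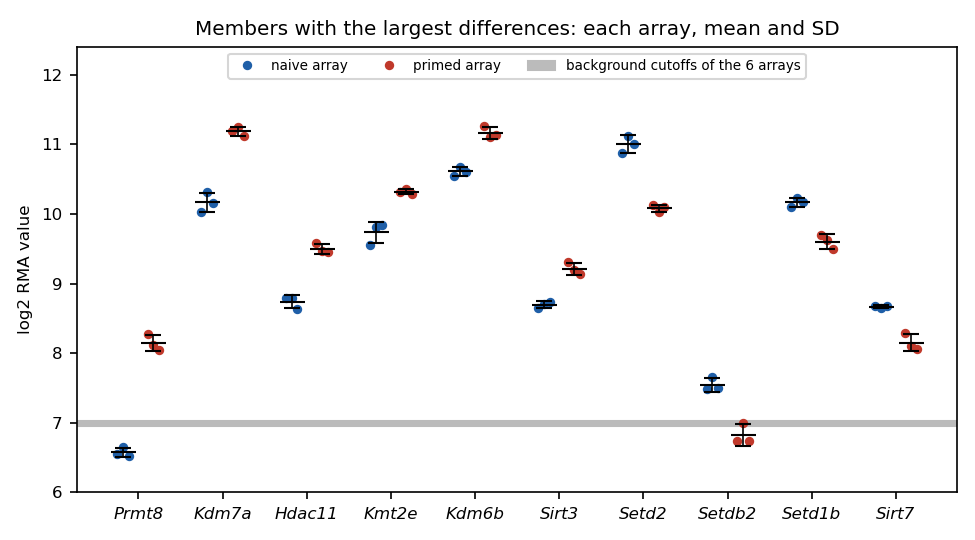
Log2 RMA values of 10 members on each array, naive in blue and primed in red, with the group mean and SD (n = 3) in black and the background cutoffs of the 6 arrays as a grey band. Prmt8 rises from below the band to above it in primed cells and Setdb2 falls into or below it, while the other 8 genes lie above it in both states.

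The Kmt2 genes, which methylate lysine 4 of histone H3 at promoters and enhancers, moved little apart from 1 member. Kmt2e, a divergent member not known to methylate lysine 4 as its relatives do, read 9.56, 9.81 and 9.84 in naive and 10.31, 10.36 and 10.29 in primed cells. The primed values were all higher, by 0.58 (SE 0.07, adjusted p = 4.49e-05), a 1.499-fold change (95% interval 1.34 to 1.67). Kmt2c, one of the enzymes that mark enhancers, read 8.96, 9.33 and 9.09 in naive and 9.47, 9.38 and 9.28 in primed cells. The groups overlapped, and the difference of 0.25 (1.19-fold, SE 0.09, adjusted p = 0.0395) lost its call without naive replicate 1 (adjusted p = 0.146), naive replicate 3 (0.0955), primed replicate 1 (0.143) or primed replicate 2 (0.0889). It also lost it with each array centred (adjusted p = 0.131) or with quantile normalization (adjusted p = 0.0543). Kmt2b read 9.56, 9.70 and 9.67 against 9.59, 9.54 and 9.42, a difference of -0.13 (1.10-fold) that did not pass (SE 0.06, adjusted p = 0.119). Kmt2a, the founding member, and Kmt2d, the main enhancer enzyme beside Kmt2c, differed by -0.03 (95% interval -0.22 to 0.15) and 0.01 (-0.21 to 0.23).

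Naive arrays spread more for the Kmt2 genes than for other families. All 5 were lowest on naive replicate 1, and 4 of 5 were highest on naive replicate 2, with median deviations from the naive mean of -0.17 and 0.18. Kmt2d alone ranged from 9.88 to 10.36 over the naive arrays. On primed arrays all 5 were lowest on replicate 3. The same order of naive arrays was seen in the Setd genes, of which 8 of 10 were lowest on replicate 1 and 9 of 10 highest on replicate 2, and in the Kdm genes, of which 12 of 15 were lowest on replicate 1, but their median deviations were only -0.06 and 0.06 for Setd and -0.06 and 0.05 for Kdm. Of the 9 Kat genes, 7 were lowest on naive replicate 1 and 5 highest on naive replicate 2, with median deviations of -0.04 and 0.03. Over all 65 members, 40 were lowest on naive replicate 1 and 38 highest on naive replicate 2, against 6775 and 6823 of 19938 genes. Over all genes the median deviations of the naive arrays were -0.0012 to 0.0026. Among primed arrays, 50 of the 65 members were highest on replicate 1, with a median deviation of 0.04, against 9199 of 19938 genes and 0.016. The source of the shared spread was not tested.

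**Figure D3:**
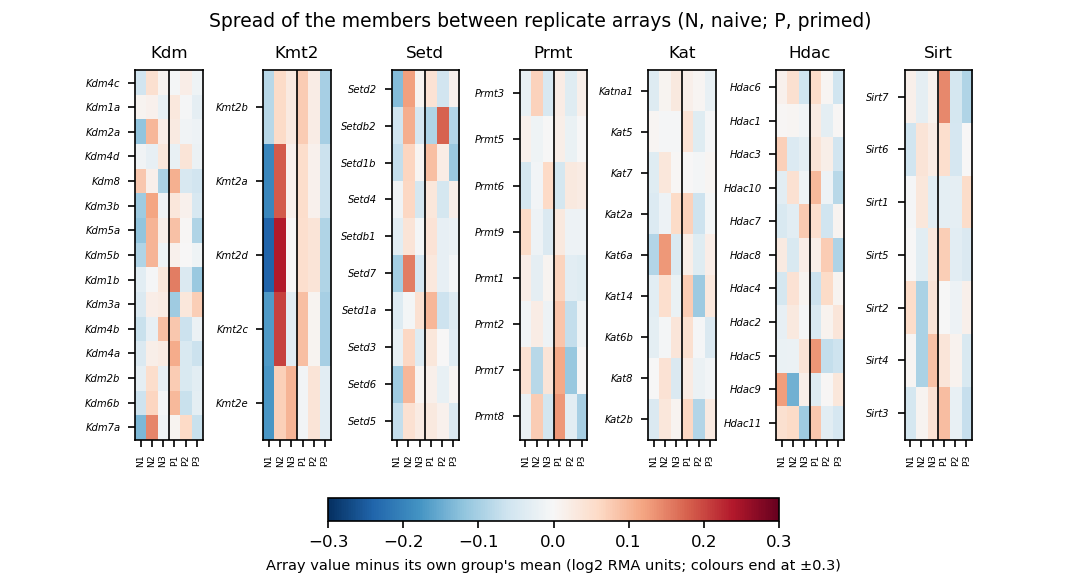
Each member's value on each array minus the mean of its own group, in log2 RMA units, by family; N1 to N3 are the naive and P1 to P3 the primed replicates, and red is above and blue below the group mean. The Kmt2 genes are below their mean on naive replicate 1 and mostly above it on naive replicate 2, a pattern that is fainter in the Setd, Kdm and Kat genes.

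Of the demethylases, which remove methyl groups from lysines, Kdm7a rose most. It is a JmjC enzyme that acts on lysines 9 and 27 of histone H3. Its arrays read 10.03, 10.31 and 10.16 in naive and 11.19, 11.25 and 11.12 in primed cells. No values overlapped, and the difference of 1.02 (SE 0.07, adjusted p = 5.09e-07) is 2.03-fold (95% interval 1.82 to 2.26), with 1.06 in a further probe set. Kdm6b, which removes trimethylation of lysine 27, the mark set by Polycomb, read 10.55, 10.68 and 10.61 in naive and 11.27, 11.10 and 11.14 in primed cells. It was higher on every primed array, by 0.55 (1.47-fold, SE 0.06, adjusted p = 1.67e-05). Kdm2b, a lysine 36 demethylase that brings a Polycomb complex to CpG islands, read 10.31, 10.39 and 10.31 against 10.86, 10.74 and 10.76. This was a rise of 0.45 (1.37-fold, SE 0.06, adjusted p = 4.39e-05), again without overlap.

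The 2 members that act on lysine 27 both rose in primed cells, where 21.8% of all genes and 27.8% of expressed genes were higher. Of the members that act on lysine 9, Kdm7a rose as given above, and the Kdm3 and Kdm4 genes divided: Kdm4a (0.36, adjusted p = 0.000418), Kdm4b (0.34, adjusted p = 0.000695) and Kdm3a (0.18, adjusted p = 0.0261) rose, and Kdm4c was lower in primed cells (-0.23, adjusted p = 0.00361). Paralogs of the Kdm4 group, which share their substrates, therefore moved in opposite directions. The call of Kdm3a ended with arrays centred and without naive replicate 1 or primed replicate 2 or 3. Kdm3b did not pass (-0.04), and Kdm4d (-0.06) was in background in both states, where a difference cannot be read. The 4 demethylases of lysine 4 among the members did not pass: Kdm1a (-0.10), Kdm1b (0.06), Kdm5a (-0.02) and Kdm5b (0.05). Kdm1a encodes LSD1, which works in the CoREST complex, and its 95% interval ran from -0.21 to 0.01. It was higher on every naive array, and it passed with arrays centred or with an intensity trend. Kdm2a (-0.10), the paralog of Kdm2b, and Kdm8 (-0.05) did not pass. The median difference over the 15 Kdm genes was 0.05. It was -0.02 with each array centred and also without primed replicate 1, so its sign depended on these choices.

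**Figure D4:**
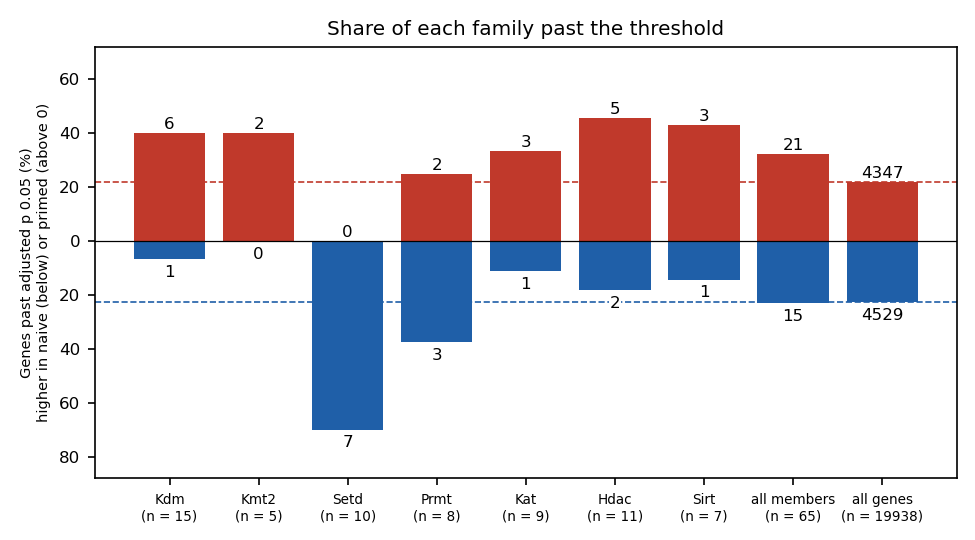
Percentage of genes in each family, in all members and in all genes that had their higher level in primed (red, above 0) or in naive cells (blue, below 0) at a limma adjusted p under 0.05, with the number of genes at each bar; dashed lines are the shares of all genes, 21.8% and 22.7%. The Setd family has 7 genes below and 0 above, whereas the Kdm and Hdac families have most called genes above.

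Arginine methyltransferases held the largest difference of any member. Prmt8, an enzyme anchored to the plasma membrane and found mainly in brain, read 6.56, 6.65 and 6.52 in naive cells, within background, and 8.28, 8.12 and 8.05 in primed cells, above it. The difference was 1.57 (SE 0.07, adjusted p = 9.92e-09), or 2.97-fold (95% interval 2.68 to 3.29) on a scale that is compressed at the naive end. Of the 8 neural markers measured, 6 rose alongside. Among them Pax6 went from a mean of 6.56 to 8.85 and Dcx from 6.43 to 7.34, both from within background. Nes (-0.21, adjusted p = 0.0516) and Neurog2 (0.02, adjusted p = 0.806) did not pass. The part of neural markers in the rise of Prmt8 was not tested. Prmt7, which adds a single methyl group to arginines, read 10.32, 10.20 and 10.32 against 10.90, 10.68 and 10.79. It was higher on every primed array, by 0.51 (1.42-fold, SE 0.07, adjusted p = 7e-05). Prmt3, which methylates a ribosomal protein, read 11.04, 11.13 and 11.02 in naive and 10.81, 10.75 and 10.80 in primed cells. It was lower on every primed array, with a difference of -0.28 (1.21-fold, SE 0.05, adjusted p = 0.00118).

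Prmt5, the main enzyme of symmetric arginine dimethylation and one needed in early embryos, was lower in primed cells by a similar step (-0.25, adjusted p = 0.00124), from 12.81 ± 0.01 to 12.55 ± 0.02 (SD, n = 3). Prmt6 was lower by a smaller one (-0.18, adjusted p = 0.0206), which did not pass without naive replicate 3 or without primed replicate 1. Prmt1, the enzyme behind most asymmetric dimethylation, did not differ past the threshold, at 11.05 ± 0.02 and 11.05 ± 0.06 (SD, n = 3), and its 95% interval of -0.12 to 0.11 leaves room for a small change. Prmt2 (0.01) and Prmt9 (-0.03) did not pass either. With 2 rises and 3 falls the family had a median difference of -0.02.

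Acetyltransferases had no called difference as large as 0.5. Kat2b, also known as PCAF, read 7.97, 8.05 and 8.02 in naive and 8.45, 8.30 and 8.41 in primed cells. The groups did not overlap and the rise was 0.38 (1.30-fold, SE 0.06, adjusted p = 2e-04), while its close relative Kat2a, also known as GCN5, differed by 0.06 (95% interval -0.07 to 0.18). Of the MYST enzymes, Kat8, which acetylates lysine 16 of histone H4, read 10.19, 10.23 and 10.15 against 10.43, 10.39 and 10.40. Its primed values were all higher, by 0.21 (1.16-fold, SE 0.05, adjusted p = 0.00471). Kat6b read 8.83, 8.85 and 8.90 against 9.10, 9.04 and 9.003, a rise of 0.19 (1.14-fold, SE 0.05, adjusted p = 0.012) that did not pass with arrays centred (adjusted p = 0.0756). Kat6a (0.14), Kat14 (0.15), Kat5 (-0.02) and Kat7 (0.0032) did not pass. The 8 acetyltransferases had 3 rises, 0 falls and a median difference of 0.15. Katna1, the katanin gene, was lower in primed cells (-0.16, adjusted p = 0.0249) and lost its call without any 1 of naive replicates 2 and 3 and primed replicates 2 and 3.

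Among deacetylase genes, 1 of 4 rose in class I, the nuclear enzymes that sit in large corepressor complexes, 3 of 4 in class IIa, 0 of 2 in class IIb and 1 of 1 in class IV. The difference between classes was not tested. Hdac11, the single class IV enzyme, read 8.79, 8.80 and 8.64 in naive and 9.58, 9.47 and 9.45 in primed cells. All primed values were higher, by 0.76 (SE 0.06, adjusted p = 1.77e-06), a 1.69-fold change (95% interval 1.54 to 1.86). Hdac9 read 7.63, 7.36 and 7.52 against 7.92, 7.96 and 7.99. It belongs to class IIa, enzymes that shuttle between nucleus and cytoplasm, and rose by 0.45 (1.37-fold, SE 0.07, adjusted p = 0.000201). Hdac5, of the same class, read 9.88, 9.89 and 9.94 against 10.43, 10.22 and 10.23, a rise of 0.39 without overlap (1.31-fold, SE 0.06, adjusted p = 0.000367). Hdac4 rose by 0.16 (adjusted p = 0.0316), and by 0.07 with overlapping groups in a further probe set. Its call ended without naive replicates 1 or 3 or primed replicates 2 or 3. It also ended with arrays centred and with the mean over probe sets. Hdac7 did not pass (0.11). With Hdac4 counted, 3 of 4 class IIa genes rose and 0 fell, while 21.8% of all genes and 27.8% of expressed genes were higher in primed cells.

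The class I pair Hdac1 and Hdac2, which share the NuRD, Sin3 and CoREST complexes, moved in opposite directions. Hdac1 was at 12.69 ± 0.01 in naive and 12.50 ± 0.03 in primed cells (SD, n = 3), a difference of -0.20 (adjusted p = 0.00648), and -0.21 in a further probe set. Hdac2 was at 11.52 ± 0.03 and 11.74 ± 0.04 (SD, n = 3), a difference of 0.22 (adjusted p = 0.00397). With quantile normalization the call of Hdac1 was lost, and that of Hdac2 was not. Hdac3, the enzyme of the NCoR complex, differed by -0.0076 (95% interval -0.13 to 0.11), and Hdac8 by 0.14 (adjusted p = 0.0757). In class IIb, Hdac6, a deacetylase of tubulin, was lower in primed cells (-0.24, adjusted p = 0.00414), and Hdac10 did not pass (0.10).

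Sirtuins, which use NAD to remove acetyl and other acyl groups, included 2 mitochondrial genes that rose and a nucleolar one that fell. Sirt3, the main deacetylase of mitochondria, read 8.65, 8.71 and 8.74 in naive and 9.31, 9.19 and 9.14 in primed cells. Its groups did not overlap and it rose by 0.52 (SE 0.06, adjusted p = 2.24e-05), a 1.43-fold change (95% interval 1.31 to 1.56). Sirt4, also mitochondrial, read 9.07, 8.97 and 9.16 against 9.47, 9.44 and 9.39, a rise of 0.37 (1.29-fold, SE 0.06, adjusted p = 0.000359). Sirt5, another mitochondrial member, did not pass (0.09, adjusted p = 0.216), although its 3 primed values lay above its 3 naive values. Sirt7, a nucleolar enzyme, went the other way, from 8.69, 8.64 and 8.68 to 8.30, 8.10 and 8.06. All its primed values were lower, with a difference of -0.52 (1.43-fold, SE 0.07, adjusted p = 5.37e-05). Of the other nuclear members, Sirt1 (0.07) and Sirt6 (-0.14, adjusted p = 0.0649) did not pass, and Sirt6 passed under several alternatives, among them array weights and an intensity trend. Sirt2, largely cytoplasmic, rose by 0.19 (adjusted p = 0.0181), a call lost without naive replicate 2 or primed replicate 3 and with arrays centred. The difference between compartments was not tested.

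The partners of these enzymes were read from fixed lists. Of 12 partners of the Kmt2 and Setd1 enzymes in COMPASS complexes, 4 were higher in naive cells (33.3%, against 22.7% of all and 28.8% of expressed genes). In primed cells 1 was higher (8.33%, against 21.8% and 27.8%). This is 41.7% called, below the 44.5% of all genes and 56.7% of expressed genes, with a median difference of -0.05. Paxip1 (-0.26, adjusted p = 0.00245) and Men1 (-0.24, adjusted p = 0.0044), which encodes menin, were lower in primed cells, and Ncoa6 rose (0.31, adjusted p = 0.00487).

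Among 24 measured partners of Hdac1, Hdac2, Hdac3 and Kdm1a in the NuRD, Sin3, CoREST and NCoR complexes, 11 had their higher level in naive cells (45.8%) and 7 in primed cells (29.2%). This is 75% called, against 44.5% of all genes and 56.7% of expressed genes. Chd3, a remodelling subunit of NuRD, rose by 0.82 (adjusted p = 4.12e-07) and Rcor3, a CoREST scaffold, by 0.79 (adjusted p = 2.33e-06). Rbbp7, a histone-binding subunit of several of these complexes, was lower in primed cells (-0.76, adjusted p = 1.23e-06). The list's median difference was -0.08. Of 34 partners of acetyltransferases, 7 rose and 11 fell in primed cells (median -0.03), so that 52.9% were called, between the 44.5% of all genes and the 56.7% of expressed genes. They were led by Jade3 (-0.83, adjusted p = 2.17e-07) and Jade2 (-0.82, adjusted p = 6.52e-07), scaffolds of the complex around Kat7, and by Tada3 (-0.47, adjusted p = 1.72e-05), an adaptor that works with Kat2a and Kat2b. Kat7 itself was at 12.36 ± 0.03 and 12.37 ± 0.01 (SD, n = 3). Rbbp7 and Jade3 lie on the X chromosome, and the sex of the lines is not stated.

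Enzymes of the same kinds under other names gave further counts, which stand beside the 44.5% of all genes and 56.7% of expressed genes called. Of 18 other lysine methyltransferases, 6 were higher in primed and 3 in naive cells (median 0.03), which is 50% called. Nsd2, which dimethylates lysine 36, rose by 0.62 (adjusted p = 3.6e-05), whereas Setd2, which adds the third methyl group there, fell. Prdm9, a lysine 4 methyltransferase of meiosis, rose by 0.36 (adjusted p = 0.000832), and Smyd5 was lower in primed cells (-0.46, adjusted p = 3.11e-05). Other acetyltransferases divided 2 and 2 of 10 (40% called, median -0.05), with Hat1 at -0.29 (adjusted p = 0.00123), Ep300, the p300 coactivator, at -0.26 (adjusted p = 0.00479) and Ncoa2 at 0.25 (adjusted p = 0.00227). Of 13 other JmjC proteins, 3 were higher in primed and 5 in naive cells (61.5% called, median -0.09). Phf2, a relative of Kdm7a, rose by 0.61 (adjusted p = 2.8e-06), and Hspbap1 (-0.59, adjusted p = 5.23e-06) and Tyw5 (-0.33, adjusted p = 0.00259) were lower in primed cells.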

How the data were processed

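Total RNA of 6 cultures was measured on Affymetrix mouse gene arrays. The deposited values are log2 expression values that the authors made by RMA, using Partek 6.6 according to the submitters' processing notes. Options and genome build: not given in the sources used here. RMA compresses differences of dim genes.

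Of 35556 probe sets, 21789 had 1 gene symbol in GEO's platform annotation, 1621 had several and were not used, and 12146 are not named here. By gene ID, 21698 matched the RefSeq table of GRCm38.p6. The probe set with the highest mean stood for a gene, which left 19938 genes. The test was limma's moderated test (version 3.58.1, under R 4.3.3), two-sided and without covariates, with Benjamini-Hochberg adjustment over all genes at 0.05. Tables were summarised in Python 3.11.15. On simulated data with the spread of these 19938 genes, the limma test found 30% of changes of 0.25, 78% at 0.5 and 98% at 1. It called 3 unchanged genes there. Recovery with as large a share of genes changed as the 44.5% called in these data was not tested.

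Members, lists and tests were chosen with earlier results of these data known. The 3 members of each family with the largest difference, and the 3 called genes of each list with the largest, are given in full; other members are named to complete a family. Alternatives were quantile normalization, centring, the mean over probe sets, annotation symbols, a filter at the 40th percentile, an intensity trend, array weights, a threshold of 0.01, a difference of at least 0.5, the replicate number as a block, and leaving out each array.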

Additional observations from a re-analysis of the deposited data

How the results depend on the processing

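Of the 36 members called, 26 were called in the same direction under each of the 14 alternatives at the 0.05 threshold in which they were fitted, and 28 without each array in turn; Prmt8, Setdb2 and Kdm4d were removed by the filter on dim genes. No call was reversed. Without each array in turn, members higher in primed numbered 18 to 21 and those higher in naive 12 to 16. Signal over background limits Kdm4d in both states, Prmt8 in naive and Setdb2 in primed cells.

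Requiring a difference of at least 0.5 left 1480 genes and 7 members higher in primed, and 1286 genes and 4 members higher in naive cells. By family these were 2 and 0 for Kdm, 1 and 0 for Kmt2, 0 and 3 for Setd, 2 and 0 for Prmt, 0 and 0 for Kat, 1 and 0 for Hdac and 1 and 1 for Sirt. Centring each array moved the family medians to -0.0201 (Kdm), -0.32 (Setd), -0.0881 (Prmt), 0.0676 (Kat), 0.0686 (Hdac) and 0.0191 (Sirt), since all genes then had a median of -0.07. It gave 3 Kdm, 1 Kmt2 and 2 Sirt genes higher in naive cells and 1 Kmt2 gene higher in primed cells. Quantile normalization gave medians of -0.19 for Setd and 0.0896 for Hdac, 5 Kat, 1 Kmt2 and 1 Setd genes higher in primed cells, and 1 Hdac, 0 Kat and 1 Kmt2 genes higher in naive cells. In these fits Kmt2b passed, at -0.20 when centred and -0.14 with quantiles.

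The filter left 1 Prmt gene higher in primed and 2 Sirt genes higher in naive cells. The intensity trend gave 2 Kdm and 2 Sirt genes higher in naive cells, and array weights 1 Kmt2 gene and 2 Sirt genes. At 0.01, 1 Kmt2 gene was higher in primed and 0 Kat genes in naive cells, as was so (0 Kat genes) with Katna1 left out. Without each array in turn the Kdm median ranged from -0.0163 to 0.0590, Kmt2 genes higher in primed cells from 1 to 2, Sirt genes higher in naive cells from 1 to 2 and Kat genes higher in naive cells from 0 to 1. The cause was not tested.

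No pairing of the arrays by the replicate numbers of the titles was seen. Deviations of same-numbered arrays correlated at -0.11, 0.0015 and -0.02 over genes, and the arrays did not each correlate best with their own number. Whether same-numbered cultures were handled together was not tested. With the replicate block, 4172 genes were higher in primed and 4344 in naive cells, against 21 and 14 members, and 0 Kat genes were higher in naive cells.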
